A study of Homo sapiens with 16 samples.

Results

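Actin and the genes around it were followed in human cell cultures labelled as liver cancer lines and given cinobufagin, a bufadienolide from toad skin secretions and an inhibitor of the sodium pump (Na,K-ATPase). The account covers 10 genes, taken by symbol from the deposited gene tables: SRF, ACTB, ACTG1, ACTA2, TAGLN, CNN2, VCL, FLNA, TPM1 and TNS2. They are 10 of the 16697 gene identifiers listed in at least 1 library. All 10 were listed in every library, and all 10 passed the filter on low counts, ACTA2 only through its level in HepG2. TNS2 fell 29.8-fold to 35.7-fold in both cell lines, SRF rose 2.81-fold to 3.24-fold, and the cytoplasmic actins changed differently in the 2 lines.

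Serum response factor (SRF) is a transcription factor that binds the CArG box, a short DNA element in the promoters of actin and many actin-associated genes. Its cofactors MRTFA and MRTFB bind unpolymerised actin (G-actin) and are held in the cytoplasm by it. When G-actin is built into filaments the cofactors are released, enter the nucleus and act with SRF, so that actin and SRF form a feedback circuit. SRF also works with the ELK factors (ELK1, ELK3, ELK4), which respond to MAP kinase signalling, and the SRF gene is itself an SRF target. In liver the smooth muscle members of this gene group, ACTA2 and TAGLN, are best known from activated stellate cells and myofibroblasts, while the cytoplasmic actins are made by all cells.

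The 16 libraries came from cultures labelled Huh-7 and HepG2, the names of established hepatoma lines. Huh-7 had 3 untreated libraries, 3 after 12 h and 3 after 24 h of cinobufagin at 5 µmol/L. HepG2 had 1 untreated library, 3 after 12 h and 3 after 24 h at that dose. The labels name no untreated cultures kept for 12 or 24 h and no solvent for the controls, so drug and time in culture cannot be told apart, and "treated" below means both. Both times of a line are compared with that line's untreated libraries, which the comparisons therefore share. Nothing in the labels tells whether replicate libraries are separate cultures. A p-value here therefore reflects the spread between these libraries alone, which may be technical. The single untreated HepG2 library has no spread of its own. In every test that uses it, including that between the untreated lines, the spread comes from the other groups. In such bulk RNA, fewer cells of a kind and less RNA per cell cannot be told apart.

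Libraries held 9543048 to 10457853 expected counts. Replicate libraries of a group correlated closely and none was a repeat of another by its counts. The untreated libraries were checked against markers of the labelled cell type. Of 10 hepatocyte markers 5 were listed in any library and APOA2, APOB, APOH, TTR and SERPINA1 were not found in the tables used here. AFP, TF and APOA1 were at or near 0 in all groups. HNF4A, a nuclear receptor of differentiated hepatocytes, stood at 37.84 CPM (counts scaled to the library total, here without further scaling) in untreated Huh-7 and at 0.709 in untreated HepG2, and FGB, a fibrinogen chain, at 1.888 and 2.634. These values go against the labelled cell type, apart from HNF4A in untreated Huh-7. The identity of the lines is therefore in doubt, and each line comparison below is one between cultures as labelled. In Huh-7 HNF4A went to 0.5563 CPM at 12 h and 0.2662 at 24 h, while FGB went to 3.161 and 2.858. The list summed to 38.86 to 40.79 CPM in untreated Huh-7, where HNF4A made up most of it, and in all other groups FGB did. The sum went to 3.415 to 4.173 and 2.804 to 3.383 in treated Huh-7, and in HepG2 from 3.343 to 1.68 to 2.206 and 1.912 to 2.586. Whether the change of HNF4A has a part in the results below was not tested. The lines are called by their labels.

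The promoters of SRF, ACTG1, CNN2 and FLNA are shown because their windows hold the element that SRF binds. RefSeq promoter windows (build GRCh38.p14, from 250 bases before to 50 bases after an annotated transcript start) were available for 8 of the 10 genes and were searched on both strands for the CArG box, in its strict form of a CC pair, 6 A or T bases and a GG pair. Capitals mark the boxes, and positions are those of a box's first base counted back from the transcript start. The SRF window lies on chromosome 6 (chr6:43171019-43171318, plus strand) and holds 2 boxes, CCATATAAGG at -30 and CCATAAAAGG at -10. The ACTG1 window (chr17:81512750-81513049, minus strand) holds CCATATATGG at -94, the CNN2 window (chr19:1026358-1026657, plus strand) CCTTATAAGG at -89, and the FLNA window (chrX:154374585-154374884, minus strand) CCAATTAAGG at -94.
SRF: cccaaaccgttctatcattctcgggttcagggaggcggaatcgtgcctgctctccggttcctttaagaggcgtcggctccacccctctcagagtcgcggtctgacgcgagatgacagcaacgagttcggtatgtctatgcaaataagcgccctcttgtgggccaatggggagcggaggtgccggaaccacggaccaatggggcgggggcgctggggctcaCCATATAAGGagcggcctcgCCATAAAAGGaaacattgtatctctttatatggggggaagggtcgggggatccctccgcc
ACTG1: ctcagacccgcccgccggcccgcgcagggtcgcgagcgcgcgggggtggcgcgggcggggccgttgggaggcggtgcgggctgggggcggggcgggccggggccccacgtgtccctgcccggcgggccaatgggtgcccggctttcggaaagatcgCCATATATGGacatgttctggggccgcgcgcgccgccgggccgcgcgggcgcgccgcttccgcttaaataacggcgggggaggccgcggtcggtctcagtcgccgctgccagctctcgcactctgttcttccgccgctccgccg
CNN2: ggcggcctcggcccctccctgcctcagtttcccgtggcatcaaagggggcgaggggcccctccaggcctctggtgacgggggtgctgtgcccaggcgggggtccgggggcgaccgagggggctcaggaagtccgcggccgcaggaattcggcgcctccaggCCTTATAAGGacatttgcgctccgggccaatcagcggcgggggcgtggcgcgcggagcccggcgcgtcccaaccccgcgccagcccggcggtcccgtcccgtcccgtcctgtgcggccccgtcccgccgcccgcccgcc
FLNA: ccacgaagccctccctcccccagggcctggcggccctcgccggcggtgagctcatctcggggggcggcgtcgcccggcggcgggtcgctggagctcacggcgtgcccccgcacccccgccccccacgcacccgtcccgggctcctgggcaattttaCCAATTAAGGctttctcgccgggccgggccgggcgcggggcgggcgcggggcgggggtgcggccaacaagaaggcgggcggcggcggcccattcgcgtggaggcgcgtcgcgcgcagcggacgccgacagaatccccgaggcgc
A second SRF window and the windows of ACTA2, VCL, TPM1 and TNS2 held no strict match, which says only that these letters are not in those windows. ACTB and TAGLN are named only. A box was thus found for 4 of 8 genes, beside 438 of all 27305 genes with a window (1.60%) and 454 of 35116 windows (1.29%). The genes were chosen as actin and SRF target genes, so a larger share was built into that choice and is not a result. A match is a description of sequence and not a measured binding site. The 4 genes with a box did not move alike. SRF was higher in all 4 comparisons with untreated cells, CNN2 in those of Huh-7, ACTG1 in those of HepG2, and FLNA was called in none.

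Calls come from edgeR's quasi-likelihood test over all 13633 tested genes, which gives every adjusted p below. They need a Benjamini-Hochberg adjusted p under 0.05 and a change of at least 2-fold. The SE given with a log2 change is the size of that change divided by the square root of the test's F statistic. It is not a fitted standard error and can be narrower than counting error where counts are few. Levels are CPM on the TMM scale, which sets the libraries level on the bulk of their genes. In Huh-7 at 12 h, 2 of the 10 genes were higher (SRF and CNN2) and 2 lower (TNS2, and ACTA2 at 13 counts or fewer a library), where 16.8% and 27.1% of all tested genes were called higher and lower. At 24 h SRF and CNN2 were higher (all genes 17.9%) and ACTB, ACTA2 and TNS2 lower (26.9%). ACTA2 was tested in Huh-7 only because HepG2 carries it, and without it 1 of 9 genes was lower at 12 h and 2 of 9 at 24 h. In HepG2, SRF and ACTG1 were higher and ACTA2 and TNS2 lower at 12 h (all genes 14.3% and 23.6%) and again at 24 h (14.1% and 22.3%). Between 12 and 24 h ACTB was lower in Huh-7 (all genes called lower 6.54%). By edgeR none of the 10 was called in HepG2 between those times, where 11.8% of all genes were, although 6 of the 10 had an unadjusted p under 0.05, and DESeq2 and limma called 0 too. The change from 12 to 24 h was called as different between the lines for none by edgeR (all genes 12.2%), with 7 at an unadjusted p under 0.05 and 0 called by DESeq2 and limma. These counts are near what the whole transcriptome gives, so the number of calls says nothing particular about the 10 genes. In Huh-7 their median log2 change was 0.20 at 12 h and -0.33 at 24 h, and in HepG2 it was 0.26 and 0.03, beside -0.10, -0.04, -0.09 and -0.01 over all tested genes.

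**Figure D1:**
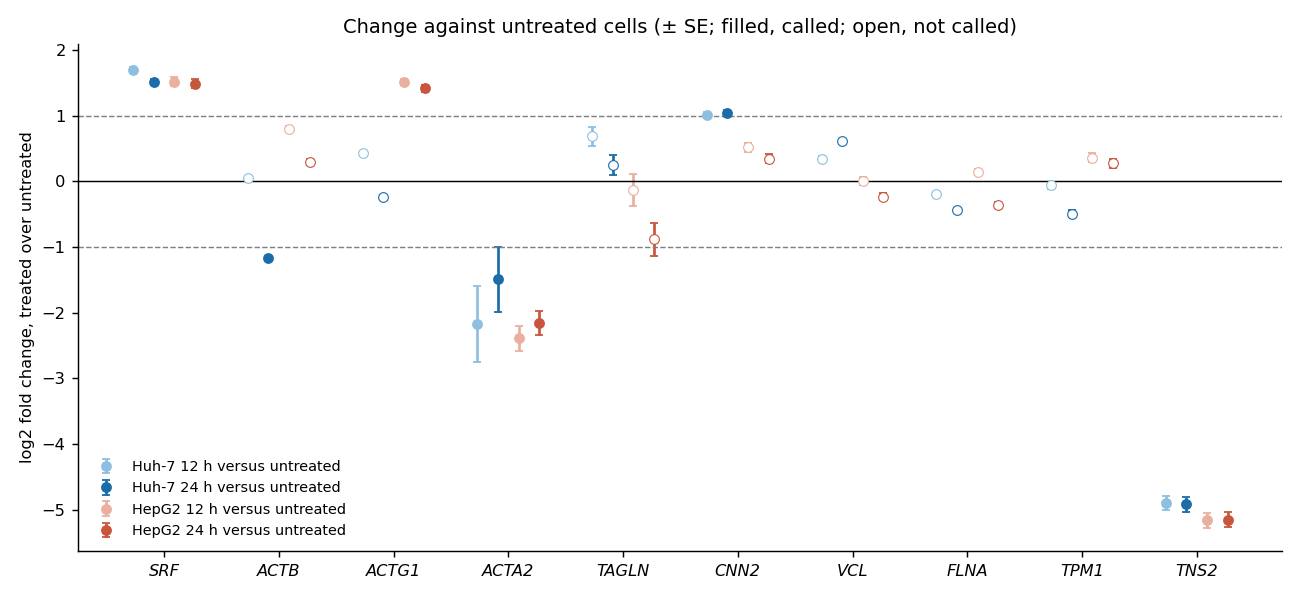
Log2 fold change of each gene against the untreated libraries of its line (points) at 12 and 24 h, filled where called. Bars are the SE taken from the F statistic of the test, not a fitted standard error. TNS2 lies between -4.90 and -5.16 in all 4 comparisons and SRF between 1.49 and 1.70, while ACTB and ACTG1 are higher in the HepG2 comparisons than in the Huh-7 ones.

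SRF rose in both lines. Untreated Huh-7 libraries held 80.55, 79.63 and 81.46 CPM, the 12 h libraries 260.0, 275.3 and 248.3, and the 24 h libraries 234.8, 233.6 and 224.8. The untreated HepG2 library stood at 59.63 CPM, the 12 h libraries at 165.5, 172.5 and 176.5, and the 24 h libraries at 162.6, 168.0 and 172.0. Every treated library was above every untreated one of either line. The rise in Huh-7 was 3.24-fold at 12 h (log2 1.70, SE 0.044, adjusted p = 7.99e-27) and 2.87-fold at 24 h (log2 1.52, SE 0.044, adjusted p = 1.85e-25). In HepG2 it was 2.88-fold (log2 1.52, SE 0.07, adjusted p = 2.66e-19) and 2.81-fold (log2 1.49, SE 0.07, adjusted p = 5.04e-19). The difference of the 12 h change between the lines was -0.17 (log2, HepG2 minus Huh-7, SE 0.084, adjusted p = 0.0845), and that of the 24 h change -0.03 (SE 0.084, adjusted p = 0.79), so no difference in SRF was called.

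The partners of SRF did not all follow it. MRTFA rose from 31.25 ± 1.422 CPM (SD, n = 3) to 74.85 ± 2.204 and 84.51 ± 3.998 in Huh-7, a 2.39-fold and 2.70-fold change. In HepG2 it went from 80.54 CPM to 231.2 ± 9.827 at 12 h (2.87-fold, called) and 148.0 ± 6.294 at 24 h (1.84-fold, not called). MRTFB went the other way in Huh-7, from 31.94 ± 1.281 to 7.806 ± 1.195 and 10.41 ± 1.702 CPM, 4.09-fold and 3.07-fold lower. In HepG2 MRTFB stood at 66.89, 46.84 and 48.0 CPM and was not called, and the line difference was called for it at 12 h (log2 1.52) and at 24 h (1.14). ELK1 rose in all 4 comparisons, from 69.54 to 198.2 and 264.7 CPM in Huh-7 and from 120.5 to 350.9 and 264.8 in HepG2. ELK3 fell in HepG2 from 5.703 to 0.2991 and 1.348 CPM, whereas in Huh-7 its 37.14, 57.09 and 67.5 CPM gave no call. The HepG2 level of ELK3 at 12 h is about that of 3 counts (0.287 to 0.314 CPM), so its fold there is uncertain. ELK4 was called in none of the 4 comparisons with untreated cells. MYOCD, the cofactor of heart and smooth muscle, was scarce, at 4.321 CPM or less in every group. It was lower in Huh-7 at 24 h (1.171 to 0.2415 CPM, called), where the treated level is under that of 3 counts. Of the 7 genes of SRF and its cofactors 3 were higher and 1 lower in Huh-7 at 12 h, 3 and 2 at 24 h, 3 and 1 in HepG2 at 12 h and 2 and 1 at 24 h, where the shares of all genes called higher and lower were 16.8% and 27.1%, 17.9% and 26.9%, 14.3% and 23.6%, and 14.1% and 22.3%.

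**Figure D2:**
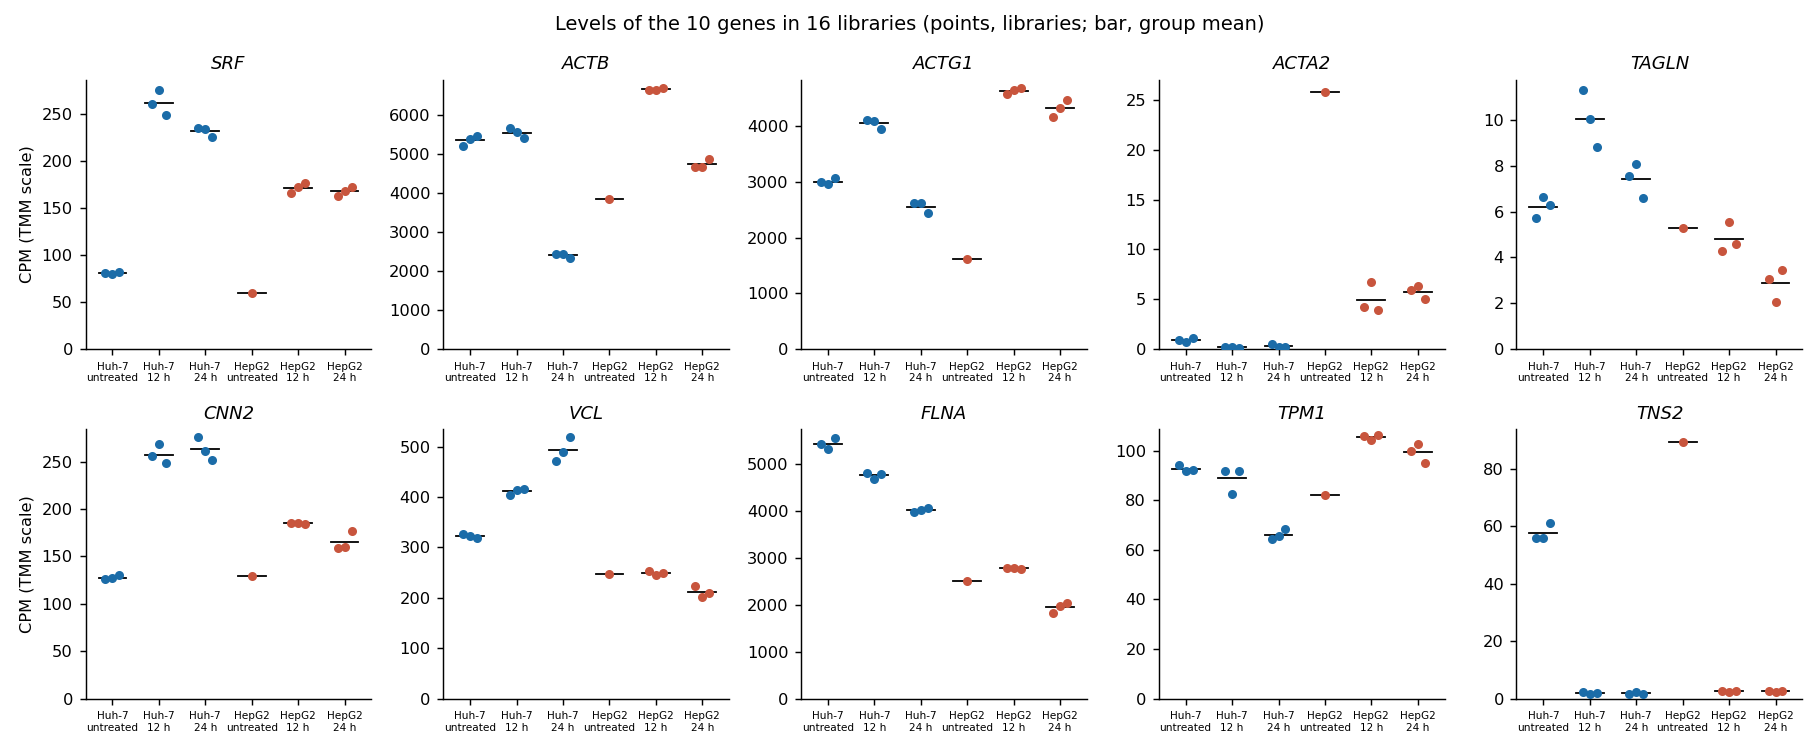
Levels of the 10 genes in each of the 16 libraries, in CPM on the TMM scale (points, libraries, with the group mean as a bar; each panel has its own axis from 0). Replicates lie close together for all but the scarce ACTA2 and TAGLN, and the TNS2 panel shows treated libraries at 2.591 CPM or less beside untreated ones at 55.83 or more.

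The cytoplasmic actins were the most abundant of the 10 genes per length. ACTB encodes beta-actin and ACTG1 gamma-actin, nearly identical proteins that build the filaments of non-muscle cells. ACTB stood at 5209, 5394 and 5454 CPM in untreated Huh-7, at 5667, 5559 and 5418 at 12 h and at 2440, 2425 and 2340 at 24 h. The 12 h libraries overlap the untreated ones (log2 0.05, and -0.365 with plain library size), and the 24 h libraries lie below all others. The fall at 24 h was 2.23-fold against untreated cells (log2 -1.16, SE 0.029, adjusted p = 3.9e-27) and 2.31-fold against 12 h (log2 -1.21, SE 0.029, adjusted p = 2.58e-26), where 6.54% of all genes were called lower. In HepG2, ACTB stood at 3837 CPM untreated, at 6650, 6659 and 6694 at 12 h and at 4670, 4675 and 4865 at 24 h. Both treated groups lie above the single untreated library, by 1.74-fold (log2 0.80) and 1.23-fold (log2 0.30), which is short of the 2-fold threshold.

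ACTG1 in untreated Huh-7 stood at 2993, 2960 and 3070 CPM, at 12 h at 4118, 4099 and 3958, and at 24 h at 2618, 2621 and 2435. These groups do not overlap on this scale, and the changes of 1.35-fold up (log2 0.43) and 1.18-fold down (log2 -0.23) were not called. With plain library size the 12 h change was log2 0.016, so that rise depends on the scaling. In HepG2 ACTG1 stood at 1615 CPM untreated, at 4591, 4648 and 4686 at 12 h and at 4168, 4331 and 4468 at 24 h. The rise was 2.87-fold at 12 h (log2 1.52, SE 0.049, adjusted p = 2.24e-23) and 2.68-fold at 24 h (log2 1.42, SE 0.049, adjusted p = 1.36e-22). The 24 h change was larger in HepG2 than in Huh-7 for both genes, by a log2 difference of 1.46 for ACTB (SE 0.051, adjusted p = 1.77e-21) and 1.65 for ACTG1 (SE 0.057, adjusted p = 1.27e-21), where 13.1% of all genes were called in that direction. At 12 h the difference was called for ACTG1 (log2 1.09, SE 0.056, adjusted p = 3.94e-17; all genes 9.40%), and for ACTB it was 0.75 (SE 0.05, adjusted p = 3.2e-14), under the 2-fold threshold.

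The coding sequences of the 2 genes are close copies, and their expected counts were not whole numbers in any of the 16 libraries, since RSEM divides reads that fit several genes among them. With the counts of ACTB and ACTG1 added into 1 row the division of reads between these 2 genes no longer matters. The sum was 1.69-fold lower in Huh-7 at 24 h (log2 -0.75, SE 0.029), no longer a call, and 2.07-fold higher in HepG2 at 12 h (log2 1.05, SE 0.043, adjusted p = 1.39e-20), a call. At 24 h in HepG2 it was 1.66-fold higher (log2 0.73), not called. The difference of the 24 h change between the lines stayed past the threshold for the sum (log2 1.49, SE 0.052, adjusted p = 1.57e-21). That of the 12 h change was 0.85 (SE 0.051) and the change from 12 to 24 h in Huh-7 -0.95 (SE 0.029), so the calls given above for ACTG1 and for ACTB alone were not calls for the sum.

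The balance of the 2 actins moved towards ACTG1 in both lines. By FPKM, which divides by gene length and so allows genes to be compared, the ratio of ACTB to ACTG1 was 1.93 ± 0.044 in untreated Huh-7 (SD, n = 3), 1.483 ± 0.011 at 12 h and 1.019 ± 0.021 at 24 h. In HepG2 it was 2.577 in the untreated library, 1.558 ± 0.011 at 12 h and 1.189 ± 0.023 at 24 h. In either line the libraries of the 3 groups do not overlap in this ratio. A two-sided exact permutation test gave p = 0.1 for each pair of Huh-7 groups and for 12 h against 24 h in HepG2, which is the smallest p that 3 against 3 libraries allow. ACTB and ACTG1 together made up nearly all actin FPKM. ACTG2, a smooth muscle actin, held at most 0.1616% of it in any library, ACTA2 at most 0.4971%, and the striated muscle actins ACTA1 and ACTC1 at most 0.0187% and 0.0021%. ACTG2 was higher in treated HepG2, from 1.728 to 5.136 and 3.485 CPM (2.96-fold and 2.01-fold, called), stood at 6.185, 7.842 and 4.757 CPM in Huh-7 with no call, and its change differed between the lines (log2 1.22 and 1.38, called). These calls rest on few counts in the single untreated HepG2 library. The ACTG2 share of actin FPKM in HepG2 was 0.0497% untreated, 0.063% to 0.0765% at 12 h and 0.048% to 0.0687% at 24 h.

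**Figure D3:**
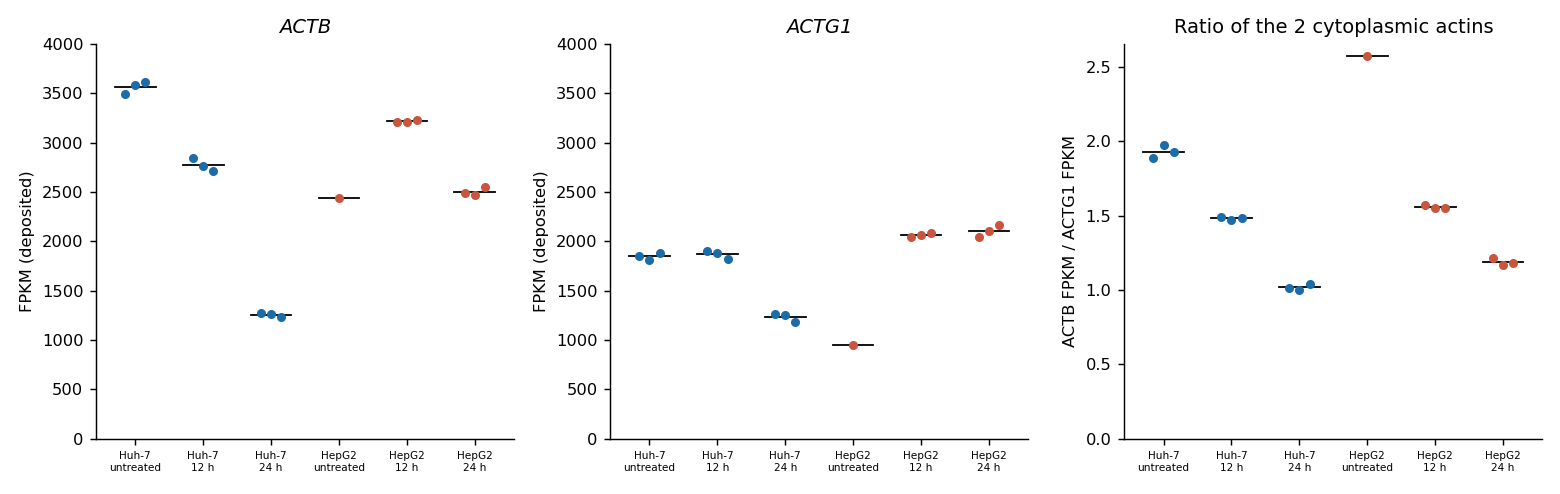
Deposited FPKM of ACTB and ACTG1 and the ratio of the 2 in each library (points, with the group mean as a bar; axes from 0). The ratio falls from 1.93 to 1.019 in Huh-7 and from 2.577 to 1.189 in HepG2 between untreated and 24 h libraries. FPKM carries no TMM scaling: on it the mean of ACTB in Huh-7 was 2771 at 12 h against 3565 untreated, groups that overlap on the CPM scale.

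ACTA2, which encodes the smooth muscle alpha-actin of myofibroblasts, was lower in treated libraries of both lines, but in Huh-7 it was too scarce for a firm call. Its counts in untreated Huh-7 were 11, 8 and 13, in the 12 h libraries 2, 2 and 1, and in the 24 h libraries 5, 2 and 2. The summed counts of 32, 5 and 9 give an untreated to treated ratio of 4.73 at 12 h (95% interval 1.83 to 15.6) and 2.87 at 24 h (1.34 to 6.85), intervals that cover counting error only. The fitted changes were log2 -2.17 (SE 0.576, adjusted p = 0.000951) and -1.49 (SE 0.499, adjusted p = 0.00707). The gene was tested in Huh-7 only because HepG2 carries it: with Huh-7 fitted apart it did not pass the filter on low counts and gave no value. On log2(FPKM + 1), where such low values hardly move, the changes were -0.543 and -0.47 and were not called. In untreated HepG2 ACTA2 stood at 25.75 CPM (298 counts), beside 0.6799 to 1.077 CPM in untreated Huh-7. This difference is given without a test, since the gene was kept for its level in HepG2.

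With treatment the HepG2 level of ACTA2 went to 4.168, 6.67 and 3.896 CPM at 12 h and to 5.917, 6.289 and 5.051 at 24 h. All 6 treated libraries lie far below the untreated one, by 5.23-fold (log2 -2.39, SE 0.193, adjusted p = 5.66e-13) and 4.47-fold (log2 -2.16, SE 0.186, adjusted p = 2.68e-12). The gene overlaps FAS, a death receptor gene, and the antisense gene ACTA2-AS1, and the use of strand in counting is not stated. FAS went from 3.37 to 0.4875 and 1.93 CPM in Huh-7, and from 8.814 to 7.632 and 12.03 in HepG2, where it was not called. Of 8 smooth muscle and myofibroblast markers all were listed, with CNN1 and LMOD1 under 1 CPM in every group. In CPM without TMM scaling the list summed to 25.67 to 26.18 in untreated Huh-7 and 51.86 in untreated HepG2, and to 15.73 to 21.2 in the treated groups. ACTA2 and TAGLN are themselves on that list. Without ACTA2 the sum was 24.83 to 24.86 in untreated Huh-7, 18.97 to 20.49 at 12 h and 17.02 to 20.7 at 24 h, and in HepG2 it was 21.68, 12.23 to 13.15 and 13.39 to 14.18. Without both genes it was 16.69 to 17.77, 9.745 to 11.68 and 10.61 to 13.43 in Huh-7. In HepG2 the sum without both was 15.5, 8.203 to 8.423 and 10.82 to 11.38. On the same scale the 7 fibroblast markers summed to 125.5 to 132.3 CPM in untreated Huh-7 and 167.7 in untreated HepG2. In the treated libraries they summed to 68.01 to 85.48 in Huh-7 and 32.34 to 58.26 in HepG2. COL1A2 and THY1 were at or near 0 throughout. The sum hides unlike changes in Huh-7, where LUM stood at 68.01, 48.31 and 61.7 CPM. COL1A1 there went from 45.7 to 17.78 and 20.11 and DCN from 11.24 to 2.361 and 0.8653. The part of these markers in the ACTA2 result was not tested.

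TAGLN encodes transgelin (SM22), an actin-binding protein of smooth muscle and a standard SRF target. It stood at 5.724, 6.629 and 6.298 CPM in untreated Huh-7, at 11.3, 10.06 and 8.817 at 12 h and at 7.546, 8.097 and 6.592 at 24 h. The 12 h libraries lie above all others and the 24 h libraries overlap the untreated ones, and neither change was called (log2 0.69, SE 0.143, and 0.25, SE 0.149). In HepG2 it stood at 5.271 CPM untreated, at 4.281, 5.558 and 4.563 at 12 h and at 3.057, 2.063 and 3.466 at 24 h, where the change of log2 -0.88 (SE 0.255, adjusted p = 0.00257) missed the fold threshold. The line difference at 24 h was called (log2 -1.13, SE 0.295, adjusted p = 0.00131; all genes called lower 10.9%). It rests on low counts, 21 to 78 a library in the groups compared, and without HepG2 24 h replicate 2 it was -0.943 and no call. TAGLN overlaps PCSK7, a proprotein convertase gene that fell in HepG2 from 68.35 to 22.56 and 23.05 CPM and stood at 30.5, 31.23 and 31.32 CPM in Huh-7.

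CNN2 encodes calponin 2, the calponin of non-muscle cells, which binds actin filaments and restrains myosin. In untreated Huh-7 it stood at 126.0, 127.2 and 129.9 CPM, at 12 h at 255.9, 268.6 and 248.1, and at 24 h at 276.5, 261.4 and 251.6. Treated and untreated libraries are well apart, by 2.02-fold (log2 1.01, SE 0.044, adjusted p = 1.79e-20) and 2.06-fold (log2 1.04, SE 0.043, adjusted p = 5.64e-21). These values sit on the 2-fold threshold, and with plain library size they were 0.595 and 0.692 and not called. In HepG2, CNN2 stood at 129.1 CPM untreated, at 184.9 ± 0.5573 at 12 h and at 165.0 ± 9.945 at 24 h, 1.43-fold and 1.28-fold higher and not called. Its counts were not whole numbers in any library, so it too shares reads with other genes. CNN1, the smooth muscle calponin, was at or near 0 in every group. CNN3, the third calponin, rose in Huh-7 from 45.97 to 142.0 and 198.4 CPM and stood at 25.84, 43.23 and 27.75 in HepG2 with no call, and its 24 h change differed between the lines (log2 -2.01, called).

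TPM1 encodes alpha-tropomyosin, which lies along actin filaments and is made in several isoforms. It was called in no comparison. In Huh-7 it stood at 94.16, 91.7 and 92.15 CPM untreated, at 91.94, 82.62 and 91.67 at 12 h and at 64.29, 65.5 and 68.29 at 24 h. The 24 h libraries lie below the rest (log2 -0.49, SE 0.05, adjusted p = 7.9e-11), under the fold threshold. In HepG2 it stood at 81.92 CPM untreated, 105.4 ± 1.22 at 12 h and 99.22 ± 4.009 at 24 h. The deposited gene length, which RSEM gives as a mean of the transcripts weighted by their estimated abundance, differed too. It was 1587 to 1627 bases in untreated Huh-7, 1527 to 1553 at 12 h and 1476 to 1495 at 24 h, with no overlap between groups (two-sided exact permutation p = 0.1 for each pair, the smallest possible). In HepG2 it was 1653 bases untreated, 1653 to 1671 at 12 h and 1641 to 1704 at 24 h, where the 12 and 24 h ranges overlap and the untreated library lies just under the 12 h libraries and inside the 24 h range. Deposited lengths moved in Huh-7 for other members too. VCL averaged 5447 bases untreated, 5464 at 12 h and 5503 at 24 h, and CNN2 2504, 2480 and 2482. The same exact permutation test gave p = 0.1 for each of these pairs, apart from CNN2 at 12 against 24 h (p = 0.7). The tables do not give levels of single TPM1 transcripts. The other tropomyosins TPM2, TPM3 and TPM4 were called in none of the 4 comparisons with untreated cells.

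**Figure D4:**
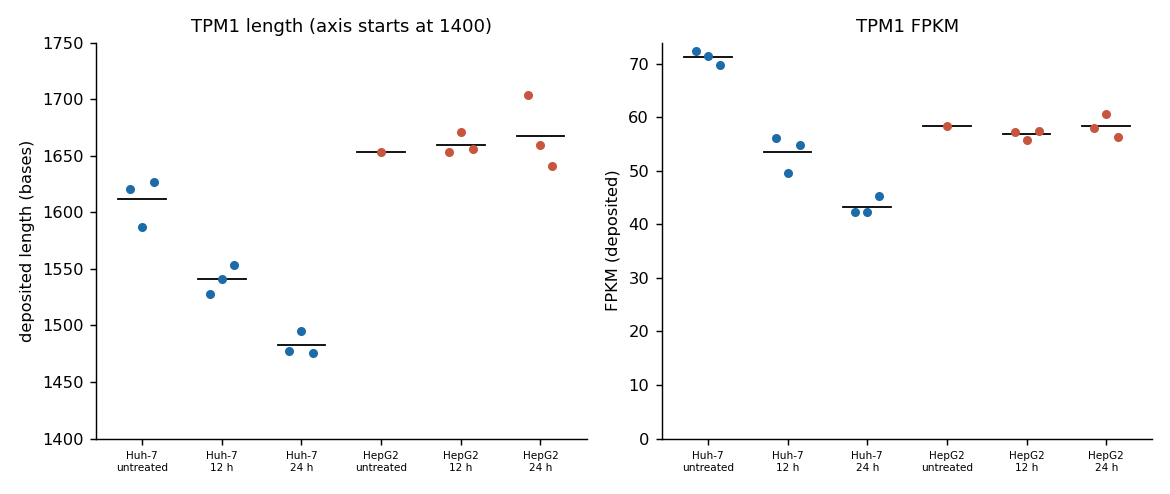
Deposited gene length of TPM1 in bases (left, axis from 1400) and its deposited FPKM (right, axis from 0) in each library (points, with the group mean as a bar). Both fall from untreated to 24 h in Huh-7, where length goes from 1612 to 1483 bases on average, while in HepG2 the 12 and 24 h libraries overlap in both.

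FLNA encodes filamin A, which crosslinks actin filaments and ties them to membrane receptors. It stood at 5425, 5319 and 5553 CPM in untreated Huh-7, at 4809, 4681 and 4798 at 12 h and at 3985, 4029 and 4071 at 24 h. The groups do not overlap, but the changes of log2 -0.19 and -0.43 were under the fold threshold. In HepG2 it stood at 2501 CPM untreated, 2775 ± 18.92 at 12 h and 1945 ± 104.6 at 24 h, also with no call. Untreated HepG2 held 2.17-fold less FLNA than untreated Huh-7 (log2 -1.12, SE 0.047, adjusted p = 3.35e-20; all genes called lower 13.1%). FLNC, the muscle filamin, was at 2.068 CPM or less in every group and was higher in treated HepG2 (0.4321 to 1.825 and 1.249 CPM, called). That call rests on a few counts in the single untreated HepG2 library.

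VCL encodes vinculin, which links talin and actin at focal adhesions. In Huh-7 it stood at 325.9, 321.6 and 318.3 CPM untreated, at 404.1, 414.2 and 416.2 at 12 h and at 470.7, 488.7 and 518.0 at 24 h. The groups do not overlap, with a change of 1.28-fold (log2 0.35) and 1.53-fold (log2 0.61), under the fold threshold, and at 12 h the sign turned with plain library size (-0.063). In HepG2 it stood at 247.2 CPM untreated, 249.0 ± 3.587 at 12 h and 211.4 ± 11.75 at 24 h. VCL overlaps AP3M1, a vesicle coat gene that went from 103.4 to 193.6 and 225.5 CPM in Huh-7 and from 79.85 to 182.8 and 176.1 in HepG2.

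TNS2 encodes tensin 2, a focal adhesion protein that binds integrin tails and carries a phosphatase-like region. It showed the largest change of the 10 genes in each comparison with untreated cells. In untreated Huh-7 it stood at 55.83, 56.09 and 61.16 CPM, at 12 h at 2.125, 1.714 and 1.922, and at 24 h at 1.757, 2.18 and 1.751. The untreated HepG2 library stood at 89.44 CPM, the 12 h libraries at 2.591, 2.335 and 2.56, and the 24 h libraries at 2.564, 2.358 and 2.575. All treated libraries of both lines lie between 1.714 and 2.591 CPM, and every untreated library at 55.83 CPM or more. In counts, 2071 over 3 untreated Huh-7 libraries became 51 and 55, and 1035 in the untreated HepG2 library became 67 and 76 over 3.

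The fall in TNS2 was 29.8-fold in Huh-7 at 12 h (log2 -4.90, SE 0.112, adjusted p = 2.96e-28) and 30.2-fold at 24 h (log2 -4.92, SE 0.109, adjusted p = 1.48e-28). In HepG2 it was 35.7-fold (log2 -5.16, SE 0.117, adjusted p = 2.17e-27) and 35.6-fold (log2 -5.15, SE 0.114, adjusted p = 1.54e-27). Between 12 and 24 h the level differed by log2 -0.02 (SE 0.241) in Huh-7 and 0.00 (SE 0.209) in HepG2. The line difference of the change was -0.26 at 12 h (SE 0.246, adjusted p = 0.456) and -0.24 at 24 h (SE 0.236, adjusted p = 0.457), neither a call. The gene overlaps SPRYD3, which went from 45.97 to 36.64 and 92.54 CPM in Huh-7 and from 41.22 to 14.08 and 52.64 in HepG2, and the antisense gene TNS2-AS1.

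The other tensins had their own patterns. TNS4 fell in all 4 comparisons, from 5.466 to 1.735 and 1.274 CPM in Huh-7 and from 11.75 to 3.164 and 2.893 in HepG2. TNS3 fell in Huh-7 at 12 h, from 139.4 to 44.01 CPM, and stood at 91.33 at 24 h with no call. In HepG2 its 209.0, 190.6 and 271.8 CPM gave no call. TNS1 fell in HepG2 from 150.3 to 23.54 and 51.82 CPM, 6.38-fold and 2.90-fold. In Huh-7 it stood at 0.2245 CPM untreated and at 0 in all treated libraries, under the level that 3 counts allow (0.287 to 0.314 CPM), so no fold is given.

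Beyond the 10 genes, 98 other genes of the actin and SRF pathway were followed in 6 lists, of which 92 were tested. In Huh-7, where TNS1 is among the lower genes at both times though too scarce there to give a fold, 16 were higher and 22 lower at 12 h, 17.4% and 23.9% beside 16.8% and 27.1% of all genes. At 24 h 22 were higher and 20 lower, 23.9% and 21.7% beside 17.9% and 26.9%. In HepG2 21 were higher and 14 lower at 12 h (22.8% and 15.2% beside 14.3% and 23.6%), and 14 and 15 at 24 h (15.2% and 16.3% beside 14.1% and 22.3%). Without TNS1, which passed the filter only through HepG2, 21 and 19 were lower in Huh-7. The median log2 change of the 92 was 0.16, 0.12, 0.35 and 0.15 in the 4 comparisons. The lists mix genes that rose and fell, and their counts below include the 10 genes.

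**Figure D5:**
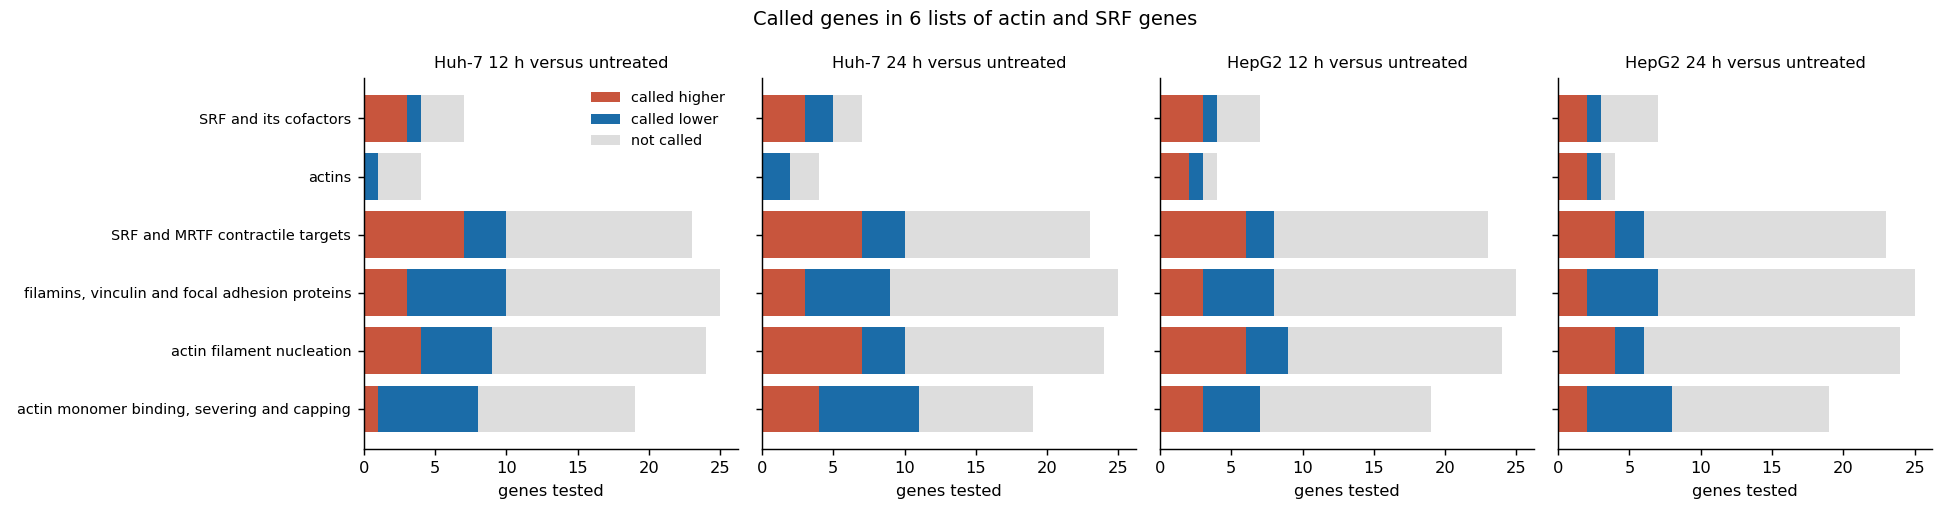
Number of tested genes called higher, called lower or not called in each of the 6 lists, for the 4 comparisons with untreated cells (bars from 0). All lists but the actins in Huh-7 hold genes called in both directions.

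Among 23 tested SRF and MRTF contractile targets 7 were higher and 3 lower in Huh-7 at 12 h and at 24 h, 6 and 2 in HepG2 at 12 h and 4 and 2 at 24 h. As shares these are 30.4% and 13.0% at both Huh-7 times, then 26.1% and 8.7%, and 17.4% and 8.7%. All tested genes gave 16.8% and 27.1%, 17.9% and 26.9%, 14.3% and 23.6%, and 14.1% and 22.3%. MYL12B, a light chain of non-muscle myosin, rose in all 4 comparisons, from 264.3 to 828.4 and 1126 CPM in Huh-7 and from 146.9 to 386.5 and 370.9 in HepG2. CALD1, caldesmon, which restrains actin-myosin contact, fell in Huh-7 from 114.6 to 45.86 and 19.44 CPM. In HepG2 it stood at 99.38, 91.95 and 117.1 CPM with no call, and the 24 h change differed between the lines (log2 2.80, called). CSRP1, a LIM protein of smooth muscle, rose 4.19-fold and 2.38-fold in HepG2 and 2.60-fold in Huh-7 at 12 h, and stood at 194.3 CPM at 24 h in Huh-7 beside 200.2 untreated. FHL2, a LIM cofactor, rose 3.03-fold and 2.61-fold in Huh-7. The HepG2 levels of FHL2 were 118.2, 98.42 and 99.72 CPM with no call, and its change differed between the lines (log2 -1.86 and -1.63, called). TGFB1I1 (HIC-5), a focal adhesion adaptor, fell 3.61-fold and 4.45-fold in Huh-7 and 6.93-fold and 6.04-fold in HepG2.

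Of 25 filamin, vinculin and focal adhesion genes 3 were higher and 7 lower in Huh-7 at 12 h, 3 and 6 at 24 h, 3 and 5 in HepG2 at 12 h and 2 and 5 at 24 h. The lower genes in Huh-7 include TNS1, without which 6 and 5 were lower. More genes were called lower than higher among all tested genes too. In the same order, all tested genes gave 16.8% and 27.1%, 17.9% and 26.9%, 14.3% and 23.6%, and 14.1% and 22.3%. An excess of lower calls is thus not particular to this list. ZYX, zyxin, a sensor of strained filaments, rose in all 4, from 189.2 to 687.5 and 598.9 CPM in Huh-7 and from 229.9 to 641.8 and 506.4 in HepG2. The kindlins, which activate integrins, split in Huh-7, with FERMT2 2.52-fold and 2.31-fold higher and FERMT1 3.71-fold and 2.54-fold lower. In HepG2 FERMT1 was 2.38-fold lower at 12 h and stood at 29.92 CPM at 24 h beside 52.45 untreated, not called, and FERMT2 at 59.63, 89.19 and 82.99 CPM gave no call. TLN2, a talin, fell in both lines, in HepG2 from 56.52 to 13.25 and 7.494 CPM and in Huh-7 from 5.496 to 1.166 and 0.1378 CPM, the last under the level of 3 counts.

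Among 24 genes of filament nucleation 4 were higher and 5 lower in Huh-7 at 12 h, 7 and 3 at 24 h, 6 and 3 in HepG2 at 12 h and 4 and 2 at 24 h. As shares these are 16.7% and 20.8%, 29.2% and 12.5%, 25.0% and 12.5%, and 16.7% and 8.3%. All tested genes gave 16.8% and 27.1%, 17.9% and 26.9%, 14.3% and 23.6%, and 14.1% and 22.3%. Formins, which elongate unbranched filaments, were called in both directions. DIAPH3 was 3.22-fold and 3.14-fold higher in Huh-7 and 3.39-fold and 2.69-fold higher in HepG2, and DAAM1 3.21-fold and 4.51-fold higher in Huh-7 and 2.53-fold and 2.59-fold in HepG2. FMNL3 was 5.21-fold and 2.90-fold lower in Huh-7 and 4.55-fold lower at both times in HepG2. FMNL1 was 2.00-fold and 2.05-fold lower in Huh-7 and 2.02-fold lower in HepG2 at 12 h, and FHOD1 2.07-fold and 2.33-fold lower at 12 h in Huh-7 and HepG2. Subunits of the Arp2/3 complex, which starts branches, were also called in both directions. ARPC5 fell 2.01-fold and 2.35-fold in Huh-7 but rose in HepG2 from 151.1 to 331.8 CPM at 12 h (2.20-fold, called) and 297.6 at 24 h (not called), and its change differed between the lines (log2 2.14 and 2.21, called). ARPC5L was 2.26-fold higher in Huh-7 at 24 h, ARPC1A 2.00-fold lower in Huh-7 at 12 h and ARPC1B 2.55-fold lower in HepG2 at 24 h.

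Of 19 tested genes of monomer binding, severing and capping 1 was higher and 7 lower in Huh-7 at 12 h, 4 and 7 at 24 h, 3 and 4 in HepG2 at 12 h and 2 and 6 at 24 h. As shares these are 5.3% and 36.8%, 21.1% and 36.8%, 15.8% and 21.1%, and 10.5% and 31.6%. All tested genes gave 16.8% and 27.1%, 17.9% and 26.9%, 14.3% and 23.6%, and 14.1% and 22.3%. GSN, gelsolin, which severs and caps filaments, fell from 22.17 to 1.511 and 1.862 CPM in Huh-7 and from 63.34 to 16.75 and 9.172 in HepG2. TWF2, twinfilin 2, which binds actin monomers, fell from 89.61 to 16.13 and 12.51 CPM in Huh-7 and from 35.26 to 8.416 and 9.011 in HepG2. PFN2, profilin 2, fell from 134.8 to 44.37 and 18.16 CPM and from 88.32 to 37.86 and 25.12. TMOD3, which caps slow-growing filament ends, rose in all 4 by 2.24-fold to 2.87-fold.

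The order of levels among the 10 genes was read from FPKM. In untreated Huh-7 it ran from ACTB (3565 ± 63.11) and ACTG1 (1848 ± 31.02) through FLNA (771.4 ± 15.91), VCL (71.98 ± 1.288), TPM1 (71.17 ± 1.341), CNN2 (62.58 ± 0.6264), SRF (24.2 ± 0.5064), TNS2 (14.68 ± 0.7357) and TAGLN (6.353 ± 0.3683) to ACTA2 (0.64 ± 0.1411). VCL and TPM1 did not differ there beyond their spread. In untreated HepG2 the order was ACTB (2437), ACTG1 (945.9), FLNA (338.6), CNN2 (60.43), TPM1 (58.44), VCL (52.74), TNS2 (21.8), SRF (16.92), ACTA2 (16.91) and TAGLN (5.05), from a single library. At 24 h ACTB (1254 ± 20.33) and ACTG1 (1232 ± 42.97) lay within their spread of each other in Huh-7. TNS2 then stood below TAGLN in either line, at 0.3867 ± 0.04619 against 6.113 ± 0.58 in Huh-7 and 0.5167 ± 0.02309 against 2.253 ± 0.565 in HepG2.

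For 4 of the genes the most similar patterns over the 6 group means were looked up among the 4400 genes averaging 50 CPM or more, by Pearson's r on log2 CPM, as a description with no test. The group means share lines, treatment and scaling, so the points are not independent. NOC3L, MFSD12 and ATP2A2 were nearest to SRF (r = 0.9989, 0.9989 and 0.9985), and ATP2A2, the calcium pump of the endoplasmic reticulum, went from 392.9 to 960.1 and 875.8 CPM in Huh-7. XPO1, HDGF and DCAF1 were nearest to ACTB (0.9593, 0.9567 and 0.9424), and TLN1, KIF13A and TAOK3 to ACTA2 (0.9887, 0.9839 and 0.9836). Nearest to TNS2 were PRMT5, COPG1 and ZMYM4 (0.9937, 0.9899 and 0.9877), whose changes were smaller: PRMT5 went from 146.4 to 80.82 and 79.4 CPM in Huh-7.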

How the data were processed

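Each deposited table pairs a gene identifier with an expected count, RSEM's estimate of the reads of a gene with shared reads divided among genes, and an FPKM value, per the file headers. The tables also give a gene length in bases, per the file headers. Tools named in the submitters' processing notes are RSEM, HISAT and Bowtie2, with hg19 as the build, and no version is given in the sources used here. Libraries were made with oligo-dT beads for an Illumina HiSeq, per the labels' protocols. The labels also mention RPKM and division by a sample median; the deposited FPKM values were used as they stand.

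Only genes above 0 are listed, so an unlisted gene was entered as 0. Names came from a RefSeq table (GRCh38.p14), which named 16649 of 16697 identifiers. From the deposited expected counts, rounded to whole numbers, edgeR 4.0.16 in R 4.3.3 (limma 3.58.1, DESeq2 1.42.0 for alternatives) was run: filterByExpr left 13633 genes and removed 3064, TMM scaled the libraries, and the quasi-likelihood fit had a mean for each of 6 groups and 10 residual degrees of freedom. The single untreated HepG2 library was assumed to vary like the other groups. Total counts of 9543048 to 10457853 make 3 counts, the limit that a count of 0 allows, 0.287 to 0.314 CPM, for counting error only. Between 31.1% and 32.3% of the listed counts of a library were not whole. Replicate numbers did not pair libraries: of 12 same-number pairs across groups, none had deviations correlated above 0.1.

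The members, the 6 lists and the comparisons were chosen with earlier results of these data known. Named genes are the 10 members and some of those that a rule selects. It takes, per list and comparison with untreated cells, up to 3 called genes with the largest rise and 3 with the largest fall. These need a mean of at least 10 CPM. The rule adds paralogues and cofactors of members, and the 3 genes most like SRF, ACTB, ACTA2 and TNS2 at a mean of at least 50 CPM. WASL, DIAPH1, COBL and SMTN are among the genes it selects that are not described above. FMNL3 and ARPC5L fall outside this rule and were named after their values were seen. A further list and a paralogue of a member are not reported here. A planned comparison of actin protein sequences was not run, as no protein table was used. Alternatives were other scalings, filters, tools, log2(FPKM + 1) and log2(FPKM + 0.1) with limma, a replicate block, the lines fitted apart, ACTB and ACTG1 added, no fold threshold, and each replicate left out.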

Additional observations from a re-analysis of the deposited data

Results flagged for a closer look

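In 4 cases the change of a gene differed between the 2 lines by the test of the difference itself, in edgeR's quasi-likelihood model. Of all tested genes 9.40% were called higher for the 12 h difference, and 13.1% higher and 10.9% lower for the 24 h difference. The number of cases is near these shares, so it says nothing particular about the 10 genes. ACTG1 changed by a log2 difference of 1.09 more in HepG2 than in Huh-7 at 12 h and of 1.65 more at 24 h, from 1615 to 4323 CPM in HepG2 and from 3007 to 2558 in Huh-7 at 24 h. With the counts of ACTB and ACTG1 added, the 12 h difference was 0.85 and no call. For ACTB the difference at 24 h was 1.46, from 3837 to 4737 CPM in HepG2 and from 5352 to 2401 in Huh-7. For TAGLN the 24 h difference was -1.13, from 5.271 to 2.862 CPM in HepG2 and from 6.217 to 7.412 in Huh-7. Without HepG2 24 h replicate 2 the TAGLN difference was -0.943 and no call. All 4 rest on the single untreated HepG2 library, which cannot be left out.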

How the results depend on the processing

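Against TMM, plain library size moved the median of all genes by -0.42, -0.35, -0.40 and -0.27 (log2; Huh-7 12 and 24 h, HepG2 12 and 24 h), upper-quartile scaling by -0.27, -0.28, -0.18 and -0.14, and division by the library median by 0.17, 0.09, 0.18 and 0.09. The share of calls that were higher went from 38.3%, 40.0%, 37.7% and 38.7% to 21.3%, 24.3%, 19.3% and 24.2% with plain library size, to 26.8%, 27.1%, 29.0% and 30.9% with upper-quartile scaling, and to 47.3%, 44.9%, 49.5% and 45.9% with the library median. Changes of the 10 genes should be read relative to these shifts. Low counts limit the precision of ACTA2 and TAGLN.

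The calls of SRF and TNS2 held under every alternative run. CNN2 in Huh-7 was not called with upper-quartile scaling (0.742 and 0.766 at 12 and 24 h), plain library size (0.595 and 0.692), a mean of at least 5 CPM (0.972 and 0.939), log2(FPKM + 1) (0.603 and 0.696) or log2(FPKM + 0.1) (0.61 and 0.704), and at 12 h also with no filter (0.989), Huh-7 fitted apart (0.998) and 4 single libraries left out: Huh-7 12 h replicates 1 and 2 and HepG2 12 h replicates 2 and 3 (0.981 to 0.995). TAGLN in HepG2 at 24 h became a call with upper-quartile scaling (-1.016), plain library size (-1.146), log2(FPKM + 0.1) (-1.159) and without HepG2 24 h replicate 3 (-1.038), and its 24 h line difference was no call with upper-quartile scaling (-0.992) or log2(FPKM + 1) (-0.86). ACTB in HepG2 at 12 h became a call with the library median (1.012). With ACTB and ACTG1 added, the 12 h line difference of ACTG1 was 0.853 and the 24 to 12 h change in Huh-7 -0.954, no calls. The causes were not tested.

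Signs turned only for changes that were not called. In Huh-7 at 12 h ACTB was -0.218 with upper-quartile scaling, -0.365 with plain library size and -0.364 on both FPKM scales, VCL -0.063, -0.065 and -0.066 with plain library size, log2(FPKM + 1) and log2(FPKM + 0.1), and TPM1 0.125 with the library median. In Huh-7 at 24 h TAGLN was -0.024, -0.097, -0.05 and -0.057 with upper quartile, plain size and the FPKM scales. In HepG2 at 12 h TAGLN was 0.08 with the library median. VCL was -0.004 with relative log expression factors and with DESeq2, -0.169 with upper quartile, -0.388 with plain size, -0.041 at a mean of at least 5 CPM, -0.387 and -0.395 on the FPKM scales, and -0.002 to 0.019 with single libraries left out, negative at -0.001 without Huh-7 untreated replicates 1 or 2 or 24 h replicate 1, and at -0.002 without untreated replicate 3. FLNA was -0.03, -0.249, -0.247 and -0.248 with upper quartile, plain size and the FPKM scales, and TPM1 -0.035 with plain size and -0.04 on both FPKM scales. In HepG2 at 24 h TPM1 was -0.003 on both FPKM scales.

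Counts of calls moved most without the fold threshold. In the order Huh-7 12 h, 24 h and 24 against 12 h, HepG2 the same, untreated lines, and line differences at 12 h, 24 h and from 12 to 24 h, it gave 8, 9, 7, 8, 10, 6, 8, 7, 6 and 7 of the 10 genes and 11413, 11444, 8387, 10041, 9992, 8385, 9501, 7054, 8198 and 6897 of all genes. At a mean of at least 5 CPM 2 of the 10 were called in Huh-7 at 12 h, 3 at 24 h and 1 between untreated lines, and 1023 genes in HepG2 from 12 to 24 h and 2288 between untreated lines. On log2(FPKM + 1) these were 2 and 3 in Huh-7, 2 for the 12 h line difference, and 732, 611, 2369 and 828 genes for Huh-7 and HepG2 from 12 to 24 h, the untreated lines and the line difference from 12 to 24 h. Huh-7 fitted apart gave 2 at 12 h, where ACTA2 no longer passed the filter and CNN2 was not called. With single replicates left out the counts of the 10 genes were 3 to 4, 5, 4 and 4 to 5 in the comparisons with untreated cells and 2 to 3 for the 24 h line difference. The replicate block, which the pairing check does not ask for, gave 5985, 6102, 5120 and 4929 genes in those comparisons and 4, 5, 4 and 4 of the 10, beside 5993, 6112, 5164 and 4956 genes and 4, 5, 4 and 4 without it.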
